A study of Mus musculus with 6 samples.

Results

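The genes described here build and service the photoreceptor cilium: subunits of the BBSome and of the intraflagellar transport (IFT) trains, the motors of those trains, proteins of the connecting cilium and its transition zone, and carriers of lipidated proteins. Members were all probe sets of the platform annotation with a single symbol that starts with Bbs or Ift followed by a number, or that is 1 of 28 further named genes, and each gene was read at its brightest probe set, by the mean of all 6 arrays. This gave 48 genes with 84 probe sets, of 18193 genes with 34945 singly named probe sets in all. Of the 28 named genes, Arl6 and Arl13b have no probe set named here and are not analysed here.

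Retinal RNA was measured on 6 single-colour Affymetrix arrays, 3 of prCAD -/- mice and 3 of wild type mice. The mutant mice are knockouts for photoreceptor cadherin, the product of Cdhr1, and the labels name no strain for them, so differences of genotype and of strain cannot be told apart. The wild type mice were of strain 129, all mice were about 4 weeks old, and each array held the pooled retinas of 3 mice. The submitters describe the knockout as a model of retinal degeneration, and the question is which transcripts of the retina are altered by it.

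The light-sensitive outer segment of rods and cones is a modified primary cilium, joined to the cell body by a narrow connecting cilium that corresponds to the transition zone of other cilia. IFT trains carry material along the axoneme, outward on the IFT-B complex with kinesin-2 motors and back on the IFT-A complex with dynein-2, and the BBSome is a coat that moves membrane proteins with these trains. Myristoylated and prenylated proteins, transducin and the phosphodiesterase among them, travel instead on soluble carriers whose cargo is released by the GTPase Arl3. Mutations in many of these genes cause retinal dystrophies and syndromic ciliopathies in people.

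Ciliary genes often carry the X-box, the palindromic motif bound by RFX transcription factors, in their promoters. It was searched for as GTTNCC, any 2 bases and then GGNAAC, a pattern that reads the same on both strands, in RefSeq promoter windows of GRCm38.p6 that run from 250 bases before to 50 bases after each start site. Windows were held for 43 of the 48 genes. An exact match was found in 3 of the 43, or 6.98%, against 0.529% of 27025 genes with a window, and a match with at most 1 mismatch in 8 of them, or 18.6%, against 2.89%. The 8 matches are shown because they are a feature of these genes that the choice of members did not use, with the 14 bases of the motif in capitals and 8 bases on each side in lower case.
Ahi1: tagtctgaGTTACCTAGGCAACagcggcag
Bbs7: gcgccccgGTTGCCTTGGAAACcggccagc
Mks1: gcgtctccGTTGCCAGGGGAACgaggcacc
Bbs1: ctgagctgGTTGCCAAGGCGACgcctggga
Bbs4: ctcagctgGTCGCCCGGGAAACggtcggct
Ift22: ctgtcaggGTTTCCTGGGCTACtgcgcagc
Ift57: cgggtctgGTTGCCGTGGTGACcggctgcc
Nphp4: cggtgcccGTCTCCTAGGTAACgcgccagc
The first 3 are the exact matches, and they lie at chr10:20952560-20952589 on the plus strand for Ahi1, chr3:36613489-36613518 on the minus strand for Bbs7 and chr11:87853183-87853212 on the plus strand for Mks1. The others, each with 1 mismatch, lie at chr19:4906605-4906634 (minus, Bbs1), chr9:59353464-59353493 (minus, Bbs4), chr5:136908079-136908108 (plus, Ift22), chr16:49699199-49699228 (plus, Ift57) and chr4:152477903-152477932 (plus, Nphp4). The motif began 21 bases after the start site in Ahi1, 121 before it in Bbs7 and 24 before it in Mks1. A match of letters is a description of the window and not a binding site.

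Values are on the log2 scale after the authors' RMA normalization, so a difference of 1 is a 2-fold change, and every difference is prCAD -/- minus wild type. The test was limma on group, its p-values adjusted by Benjamini-Hochberg across 45037 probe sets, and calls were made at an adjusted p under 0.05. The array medians lay between 4.74 and 4.79, and the median of all probe set means was 4.76. The Cdhr1 probe set checks the labels: it read 3.94, 4.20 and 4.34 in prCAD -/- retinas, against 11.32, 11.36 and 10.98 in wild type retinas. Arrays share their replicate number with 1 array of the other genotype, and same-numbered arrays deviated from their group means together, so differences within the 3 pairs are given as well. In bulk retina, fewer cells of a type and less RNA per cell cannot be told apart.

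No ciliary gene passed the test between prCAD -/- and wild type retina. Of 48 genes 0 were called by limma, where 5 of 45037 probe sets were, or 0.0111%, and every member had an adjusted p of 1.00. At an unadjusted p under 0.05 there were again 0 of 48 members, where 3.42% of 18193 genes were. With the replicate block 0 members were called, where 0.0333% of all probe sets were, and 4 had an unadjusted p under 0.05, where 7.44% of genes did. At the brightest probe sets, the smallest adjusted p with the block was 0.453, of Ift57.

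The differences were small and ran both ways. Of the members, 25 lay higher and 23 lower in prCAD -/- retina, where 58.4% of all genes lay higher. Their median difference was 0.01, with quartiles of -0.10 and 0.10, against 0.02 with quartiles of -0.05 and 0.10 over all genes. Within the pairs the members' median was 0.04, -0.02 and -0.01. The size of the difference, regardless of sign, had a median of 0.10 in the members and 0.08 in all genes.

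The 95% intervals show what size of change the arrays leave possible. For 47 of 48 members the whole interval lay within 1 log2 unit on either side of 0, as it did for 98.1% of all genes. Within 0.5 it lay for 29 of the members, or 60.4%, against 76.6% of all genes, so members had the wider intervals by that measure. The exception at 1 was Mak, whose interval ran from -0.37 to 1.02. The lowest bound of any member was -0.84, of Bbs7. These intervals come from the test on group alone, which counts the shared variation of same-numbered arrays as error.

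With the replicate block the intervals were narrower, at a median SE of 0.09 over the members. All 48 then lay within 1 and 42 (87.5%) within 0.5, against 98.99% and 90.6% of all genes. In 4 members, or 8.33%, against 7.44% of all genes, the blocked interval left out 0, and these are the 4 with an unadjusted p under 0.05. Ift57 ran from 0.17 to 0.58, Mak from 0.11 to 0.55 and Bbs4 from 0.05 to 0.51. Ttc8, the only one of the 4 lower in prCAD -/- retina, ran from -0.54 to -0.00018. Their adjusted p-values in limma with the block lay between 0.453 and 0.657. A p that misses the threshold does not show that a gene was equal in both genotypes.

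**Figure D1:**
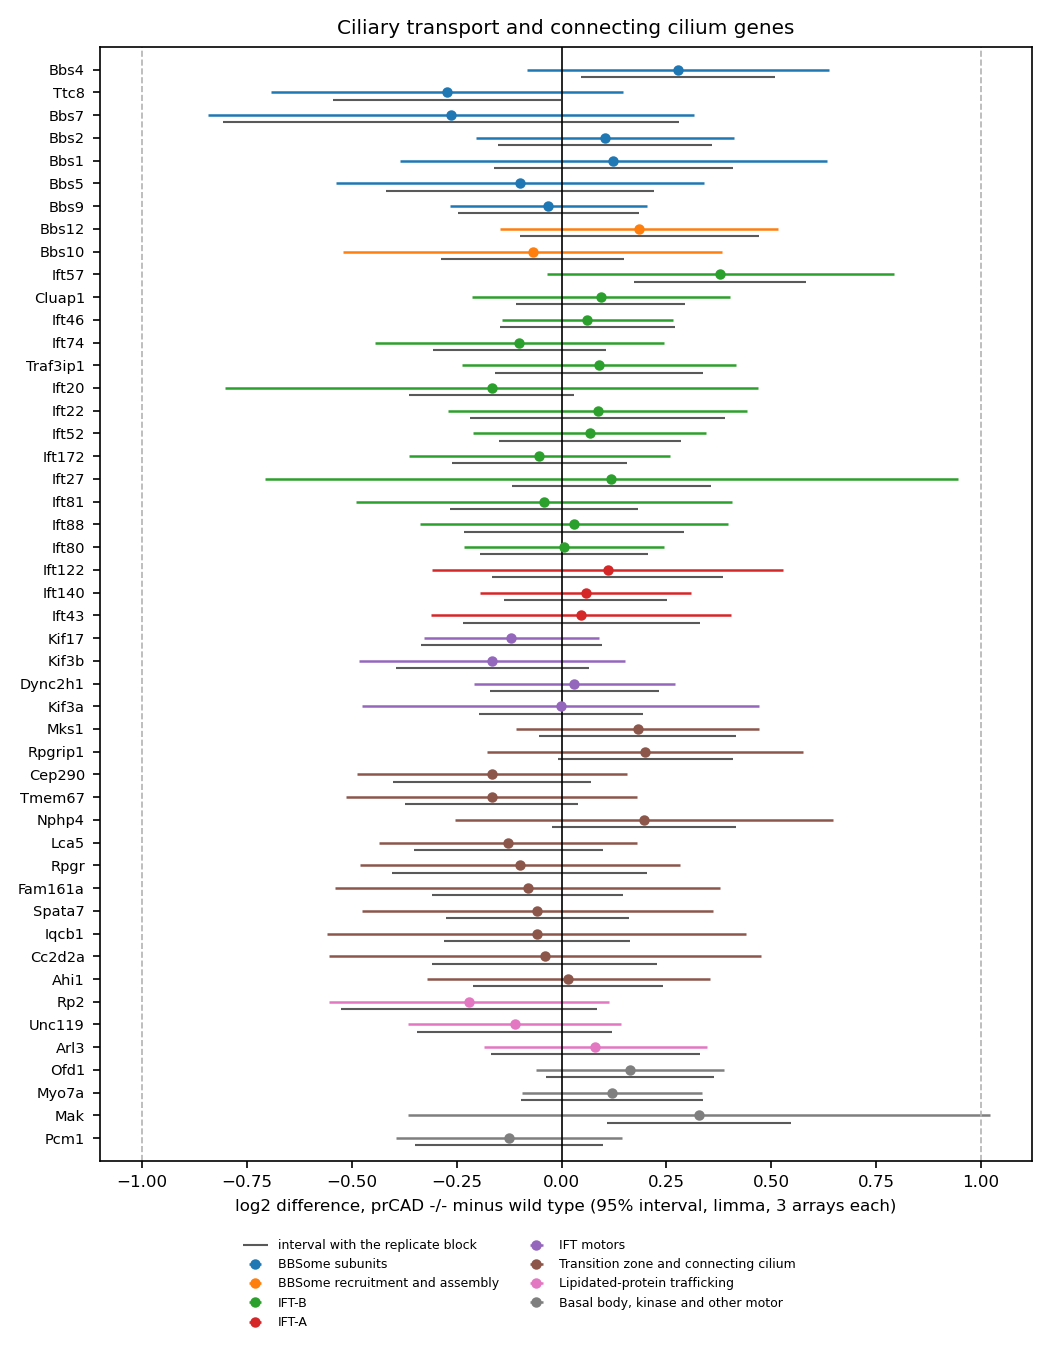
The log2 difference of each of 48 genes, prCAD -/- minus wild type, is plotted on the horizontal axis as a point with its 95% interval from limma (3 arrays each), genes down the page and coloured by role group. The grey line under each is the interval with the replicate block. All points lie between -0.27 and 0.38, every coloured interval crosses 0 and only that of Mak passes the dashed line at 1, while the grey intervals of Bbs4, Ttc8, Ift57 and Mak leave out 0.

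The BBSome subunits were split in direction. Of 7 measured subunits 3 lay higher and 4 lower in prCAD -/- retina, with a median difference of -0.03, and 0 passed. Bbs4, a subunit that joins the complex late in its assembly, read 8.56, 8.39 and 8.08 in prCAD -/- retinas 1 to 3, against 8.26, 7.96 and 7.97 in wild type retinas 1 to 3. The mutant array was the higher in each pair, but the groups overlapped, since the third mutant array lay below the first wild type array. The difference was 0.28 (SE 0.15, adjusted p = 1.00). Its other 3 probe sets differed by -0.08, 0.06 and 0.07.

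Ttc8, also known as Bbs8, is another subunit, and it lay lower in the mutant array of each pair. It read 8.18, 8.35 and 7.69 in prCAD -/- retinas, against 8.29, 8.50 and 8.25 in wild type retinas. The third mutant array was the lowest of the 6, and the difference was -0.27 (SE 0.18). Bbs5, which binds phosphoinositides, likewise had its lowest value in the third mutant array. It read 8.63, 8.78 and 8.07 in prCAD -/- retinas, against 8.54, 8.70 and 8.55 in wild type retinas, a difference of -0.10 (SE 0.19). Without that mutant array the sign of Bbs5 changed, to 0.11.

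In Bbs7 a single wild type array stood apart. The gene read 7.52, 7.36 and 7.20 in prCAD -/- retinas, against 7.42, 7.25 and 8.20 in wild type retinas. The mutant array lay higher by 0.10 and 0.11 in the first and second pairs and far lower in the third, at a difference of -0.26 (SE 0.25). Bbs1, Bbs2 and Bbs9, which complete the measured subunits, differed by 0.12 (SE 0.22), 0.10 (SE 0.13) and -0.03 (SE 0.10).

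Bbs10 and Bbs12 encode chaperonin-like proteins that help the BBSome to assemble. Bbs12 read 5.79, 5.74 and 5.31 in prCAD -/- retinas, against 5.45, 5.40 and 5.43 in wild type retinas. The first and second mutant arrays lay above all wild type arrays and the third below them, so the groups overlapped and the difference was 0.18 (SE 0.14). Bbs10 differed by -0.07 (SE 0.19).

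The IFT-B complex, the train that moves outward, gave the member with the largest difference. Of 13 measured IFT-B genes 9 lay higher and 4 lower in prCAD -/- retina, with a median difference of 0.06, and 0 passed. Ift57, an IFT-B subunit, read 6.83, 6.86 and 6.49 in prCAD -/- retinas, against 6.53, 6.50 and 6.01 in wild type retinas. The mutant array was higher in every pair, while the third mutant array lay just below the first and second wild type arrays. The difference was 0.38 (SE 0.17, adjusted p = 1.00). Its dimmer probe set, whose mean of 4.28 lies below the overall median, differed by 0.23 with groups that did not overlap.

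Ift46, needed in the alga Chlamydomonas to carry dynein arms into the cilium, read 7.91, 7.87 and 7.94 in prCAD -/- retinas, against 7.85, 7.91 and 7.77 in wild type retinas, a difference of 0.06 (SE 0.09). Ift88, whose loss in the mouse disrupts outer segments and causes cystic kidneys, differed by 0.03 (SE 0.16). Ift20, the subunit that also resides at the Golgi, differed by -0.17 (SE 0.27), and Ift172, a peripheral subunit, by -0.05 (SE 0.13). The small GTPase genes Ift22 and Ift27 differed by 0.09 (SE 0.15) and 0.12 (SE 0.35). Traf3ip1 and Cluap1, the IFT-B subunits whose symbols do not carry the prefix, both differed by 0.09.

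The 3 IFT-A genes among the members, of the train that returns, all lay slightly higher in prCAD -/- retina, with a median of 0.06 and 0 passing. The IFT-A genes Ttc21b, Wdr19 and Wdr35, which are not members, differed by -0.33, 0.18 and 0.04. Ift122, a core subunit, read 7.03, 6.74 and 6.33 in prCAD -/- retinas, against 6.70, 6.57 and 6.50 in wild type retinas. The mutant values enclosed those of wild type at both ends, and the difference was 0.11 (SE 0.18). Its dimmer probe set differed by -0.01. Ift43, a small subunit, read 7.76, 7.81 and 7.75 in prCAD -/- retinas, against 7.63, 8.06 and 7.50 in wild type retinas. Here the wild type values enclosed the mutant ones, at a difference of 0.05 (SE 0.15), and Ift140 differed by 0.06 (SE 0.11).

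Among the motors 1 of 4 lay higher and 3 lower, with a median of -0.06, and 0 passed. Kif17, a kinesin-2 motor of sensory cilia, read 6.89, 6.82 and 6.80 in prCAD -/- retinas, against 6.87, 6.99 and 7.01 in wild type retinas. The groups overlapped only through the first array of each, and the difference was -0.12 (SE 0.09). Dync2h1, the heavy chain of dynein-2, read 7.77, 7.56 and 7.80 in prCAD -/- retinas, against 7.74, 7.61 and 7.68 in wild type retinas. Its difference was 0.03 (SE 0.10), and that of the kinesin-2 subunits Kif3b and Kif3a was -0.17 (SE 0.13) and -0.002 (SE 0.20).

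Transition zone and connecting cilium genes lay lower more often than higher, at 8 against 4 of 12, with a median of -0.06 and 0 passing. Mks1, a transition zone gene of Meckel syndrome, had the smallest p of the group. It read 6.55, 6.38 and 6.31 in prCAD -/- retinas, against 6.25, 6.39 and 6.05 in wild type retinas. The second wild type array lay among the mutant values, and the difference was 0.18 (SE 0.12). Rpgrip1 tethers the GTPase regulator Rpgr to the connecting cilium. At its brightest probe set it read 9.76, 9.49 and 9.22 in prCAD -/- retinas, against 9.44, 9.33 and 9.10 in wild type retinas. The mutant array was higher in every pair, by 0.32, 0.16 and 0.12. The groups overlapped, and their means differed by 0.20 (SE 0.16).

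The gene for Rpgr itself differed by -0.10 (SE 0.16). Cep290, which spans the transition zone and is often mutated in Leber congenital amaurosis, differed by -0.17 (SE 0.14). Other genes of early blindness were as close to 0: Spata7 and Iqcb1 both differed by -0.06, and Lca5, which encodes lebercilin, by -0.13 (SE 0.13). Fam161a, a microtubule-associated protein of the connecting cilium, differed by -0.08 (SE 0.19). The ciliopathy genes Nphp4, Ahi1 and Cc2d2a differed by 0.20 (SE 0.19), 0.02 (SE 0.14) and -0.04 (SE 0.22). Tmem67, at -0.17, has a mean of 3.82, below the overall median, where background limits a difference.

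The carriers of lipidated proteins gave 1 gene higher and 2 lower, with a median of -0.11 and 0 passing. Unc119 binds the myristoyl group of transducin's alpha subunit and ferries it to the outer segment. It read 11.98, 11.82 and 11.68 in prCAD -/- retinas, against 11.98, 11.85 and 11.99 in wild type retinas. The third pair set the difference of -0.11 (SE 0.11), for the first and second pairs differed by -0.001 and -0.03. Rp2, which switches Arl3 off, read 3.98, 3.80 and 3.87 in prCAD -/- retinas, against 4.11, 4.36 and 3.85 in wild type retinas, at -0.22 (SE 0.14). All 5 of its probe sets lie below the overall median. Arl3 differed by 0.08 (SE 0.11).

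The remaining members act at the basal body or elsewhere in the cell. Ofd1, a protein of centrioles and centriolar satellites, was the 1 member of 48 whose groups did not overlap at its brightest probe set, where 8.77% of all genes had groups that did not. It read 4.09, 3.97 and 3.89 in prCAD -/- retinas, against 3.84, 3.87 and 3.74 in wild type retinas, a difference of 0.16 (SE 0.09, adjusted p = 1.00). All of these values lie below the overall median of 4.76. Mak, a kinase that limits the length of photoreceptor cilia, read 8.74, 8.54 and 9.46 in prCAD -/- retinas, against 8.56, 8.16 and 9.03 in wild type retinas. The third array of each genotype was the highest, and within the pairs the mutant lay higher by 0.17, 0.38 and 0.43. Over the groups the difference was 0.33 (SE 0.29). Pcm1, the scaffold of centriolar satellites, and Myo7a, a myosin mutated in Usher syndrome, differed by -0.13 (SE 0.11) and 0.12 (SE 0.09). All 5 probe sets of Pcm1 lay lower in prCAD -/- retina. A dimmer one, with a mean of 4.06 below the overall median, differed by -0.42 (SE 0.22) and lay lower in every pair. Its adjusted p in limma with the replicate block was 0.409, the smallest over the 84 member probe sets.

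**Figure D2:**
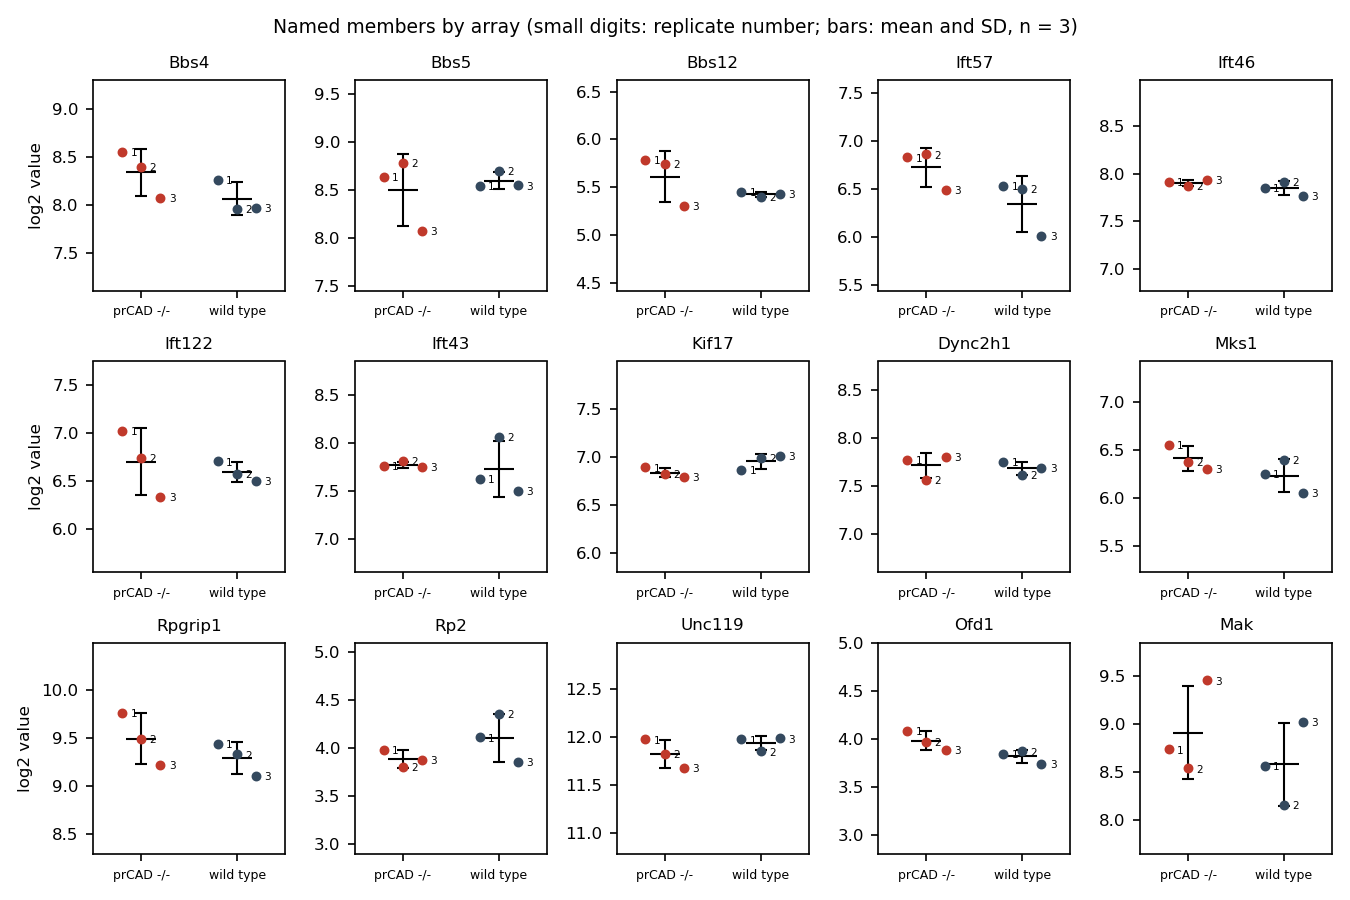
The log2 values of 15 genes are shown for prCAD -/- (red) and wild type (dark) arrays, with the replicate number beside each point and bars for mean and SD (n = 3), each panel spanning the same range. In 14 of the panels the groups overlap, Ofd1 being the exception, and in Mak the third array is the highest of either genotype.

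The members varied far more with the replicate number than with genotype. The pair of same-numbered arrays accounted for a median of 68.7% of a member's variation over the arrays and genotype for 8.67%, against 58.2% and 10.1% over all genes. Shares of 3 pairs and 2 genotypes are not on equal terms, since the pair share is the larger on average even without any effect. The members' median deviation from the gene mean was 0.10, 0.03 and -0.15 in prCAD -/- arrays 1 to 3, against 0.08, -0.02 and -0.14 in wild type arrays 1 to 3. The third array of either genotype thus read low by about as much. Over all genes the third arrays lay at -0.05 (prCAD -/-) and -0.07 (wild type).

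**Figure D3:**
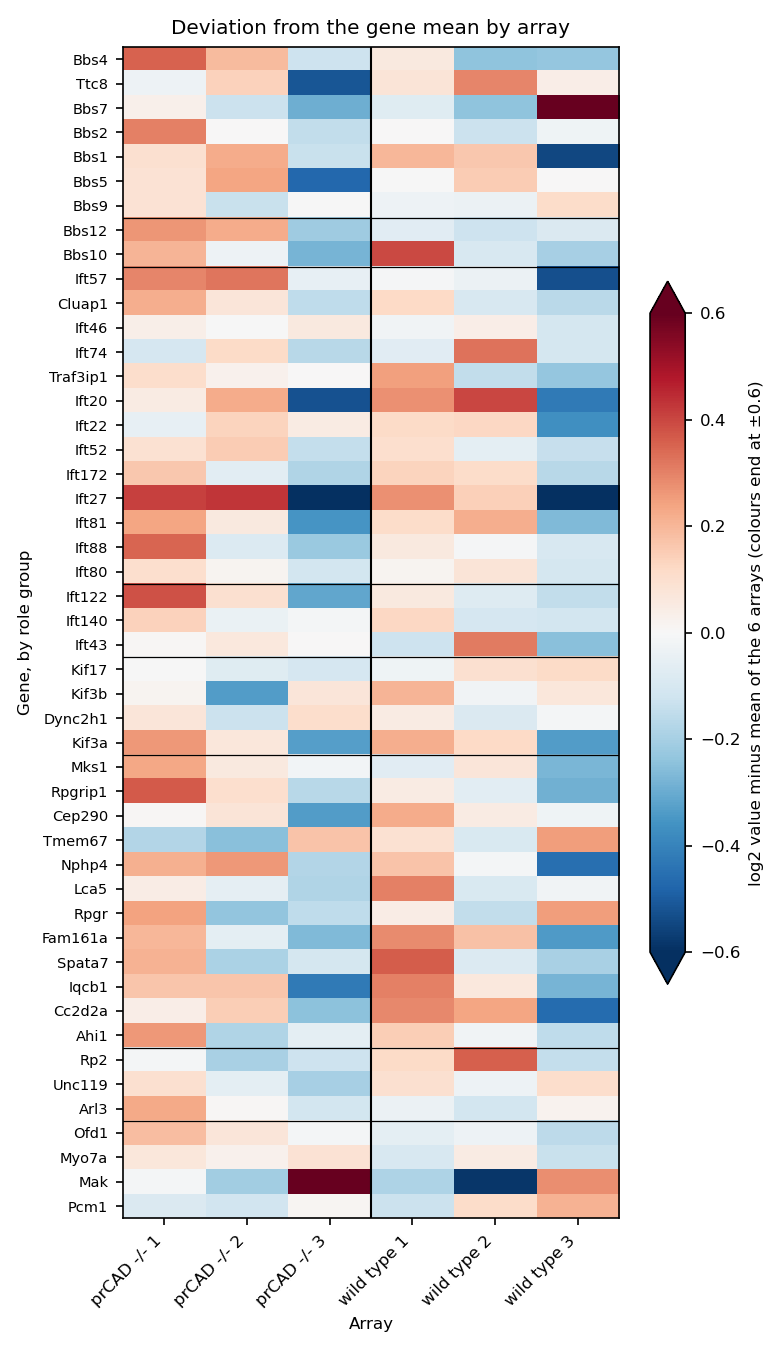
Each row is 1 of 48 genes and each column 1 array, prCAD -/- left and wild type right, with colour for the log2 value minus the gene's mean over 6 arrays. The third columns of both genotypes are mostly blue (low), with Mak and Tmem67 red in both.

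The IFT-B genes read low in the third arrays in most of their members, which is given as a count without a test. All 13 had a lower mean in the third pair than in the other 4 arrays, by a median of -0.24, and in 10 of the 13 (76.9%) both replicate 3 arrays lay below all others. Over all genes 29.3% did so, over all members 20 of 48 (41.7%) and over the 60 other genes of these pathways 24 (40%). Over all genes with a mean above the overall median, where all 13 lie, 34.1% did so. The dimmer probe sets of Ift57 and Ift80 did not share this. Of the dimmer ones of Ift81, the brighter did, and the dimmest was highest in both replicate 3 arrays. Ift27, for example, read 6.51, 6.53 and 5.43 in prCAD -/- retinas, against 6.37, 6.24 and 5.50 in wild type retinas. Its probe set is of a kind that can cross-hybridise, and lay -0.94 from the other arrays in the third pair. The dimmer probe sets of Ift27 were also lowest in both replicate 3 arrays. The one not of that kind lay lower by less, at -0.28. Ift20 followed with 6.38, 6.55 and 5.81 in prCAD -/- retinas, against 6.60, 6.73 and 5.90 in wild type retinas.

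In the transition zone group both replicate 3 arrays were the lowest in 6 of 12 genes, among them Cc2d2a, Iqcb1 and Fam161a. Among BBSome subunits 1 of 7, Bbs1, did so, and Kif3a did among the motors, with 99.3% of its variation between pairs. The other genes of the same pathways did not keep that order, at 3 of 5 (60%) of the further BBSome genes and 6 of 13 (46.2%) of the further IFT and motor genes. Mak and Tmem67 ran the other way, with both replicate 3 arrays the highest, 2 of 48 members where 8.93% of all genes did so. Rod markers (18 genes) had a median of 0.07 above the other arrays in the third pair. Cone markers (9 genes) lay at -0.34 and pigment epithelium markers (12 genes) at -0.50. These medians average the 2 genotypes. By count, both replicate 3 arrays were the lowest in 2 of 9 cone markers (22.2%), against 29.3% of all genes. The same held in 1 of 12 pigment epithelium markers (8.33%). Both were the highest in 1 of 18 rod markers (5.56%). The counts by replicate number were chosen after the values were seen, and the labels do not say what a replicate number marks.

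**Figure D4:**
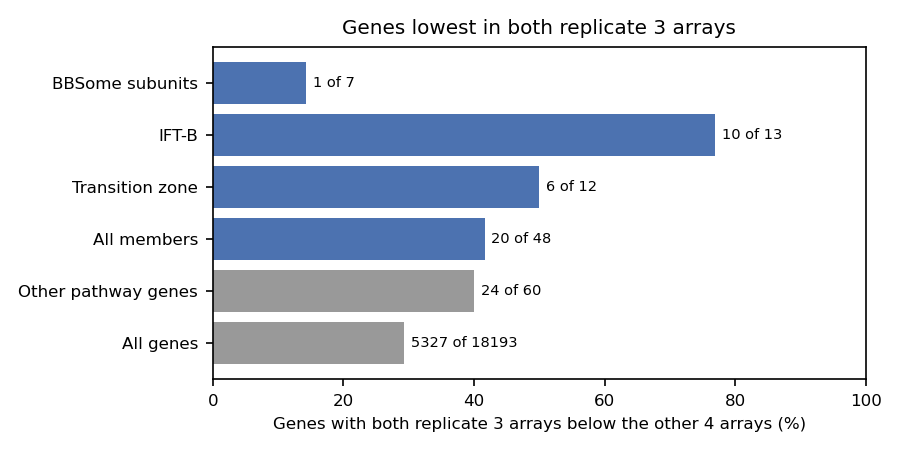
Bars give the percentage of genes in which both replicate 3 arrays, 1 prCAD -/- and 1 wild type, lay below the other 4 arrays. IFT-B stands at 76.9% (10 of 13), all members at 41.7% (20 of 48) and all genes at 29.3%.

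Probe sets of the same gene did not always move together. Of 19 members with several probe sets, 10 had probe sets of both signs, and over all 84 probe sets the median difference was -0.01 and 0 passed. Rpgrip1 gave the widest contrast. The third brightest of its probe sets read 5.94, 8.52 and 9.02 in prCAD -/- retinas, against 6.67, 8.66 and 9.22 in wild type retinas. The dimmest, with a mean of 5.45, read 3.47, 4.94 and 6.98 in prCAD -/- retinas, against 4.75, 5.60 and 6.97 in wild type retinas. Both were far lower in the first pair than in the third, by over 2 log2 units, while the brightest and the next probe set were lowest in the third pair.

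Between genotypes these 3 dimmer probe sets differed by -0.17 (SE 0.17), -0.36 (SE 0.93) and -0.65 (SE 0.91), in order of mean level, against 0.20 at the brightest. With the replicate block the SEs of the 3 were 0.09, 0.13 and 0.23. Their unadjusted p-values in limma with the block were 0.088, 0.034 and 0.027, and their adjusted ones 0.687, 0.629 and 0.614. Of the manufacturer's control probe sets, those for the actin gene Actb moved with the pairs too, and those for Gapdh moved over a far smaller range. At the 3′ end Actb read 8.90, 9.95 and 11.05 in prCAD -/- retinas, against 9.15, 10.15 and 11.00 in wild type retinas. The excess of the 3′ over the 5′ end of Actb lay between 0.59 and 0.91 in the 6 arrays, with the lowest and the highest both in the first pair. Gapdh at the 3′ end read 12.29, 12.31 and 12.33 in prCAD -/- retinas, against 12.35, 12.41 and 12.51 in wild type retinas. At the 5′ end it read 12.26, 12.35 and 12.58 in prCAD -/- retinas, against 12.51, 12.50 and 12.71 in wild type retinas. There both replicate 3 arrays lay above the others. The excess of the 3′ over the 5′ end of Gapdh lay between -0.25 and 0.03. What part RNA quality has in the pattern was not tested.

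**Figure D5:**
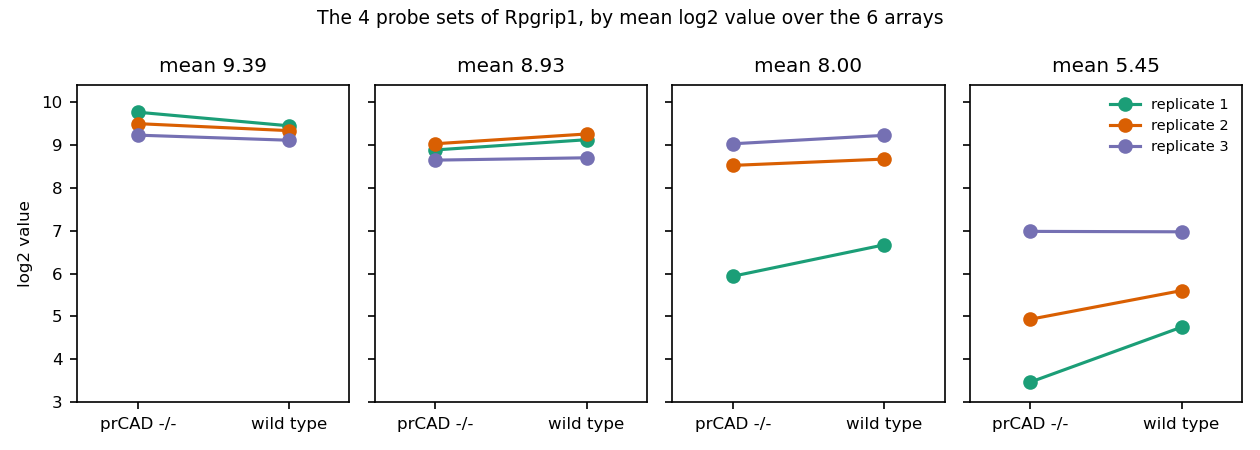
The log2 value of each of the 4 Rpgrip1 probe sets is drawn for prCAD -/- and wild type arrays, with a line joining the arrays of 1 replicate number. In the panel farthest right the 6 values span 3.51 log2 units, and in the 2 panels on the right replicate 3 is highest and replicate 1 lowest in both genotypes.

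The other genes of these pathways gave the same count of calls. Of 67 listed genes 60 were measured, 30 higher and 30 lower in prCAD -/- retina with a median of 0.004, and 0 passed by limma with or without the replicate block. At an unadjusted p under 0.05 there were 2 of 60, where 3.42% of all genes were. Ttc21b, an IFT-A subunit, was one of them. It read 6.37, 6.40 and 6.41 in prCAD -/- retinas, against 6.77, 6.83 and 6.58 in wild type retinas. All mutant arrays lay below all wild type arrays, by -0.33 (SE 0.10, adjusted p = 1.00).

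Tulp3, which hands membrane receptors to IFT-A, was the other. It read 6.52, 6.49 and 6.40 in prCAD -/- retinas, against 6.14, 6.31 and 5.72 in wild type retinas, with all mutant arrays above all wild type arrays, at 0.41 (SE 0.16, adjusted p = 1.00). The next by p were the transition zone gene Tmem17 (-0.22, SE 0.10), Rp1 of the photoreceptor axoneme (-0.19, SE 0.10), the centriole gene Poc5 (-0.20, SE 0.12) and the IFT-A gene Wdr19 (0.18, SE 0.11). In Tmem17, Rp1 and Poc5 the groups did not overlap either, which made 6 such genes of 60 with Ttc21b, Tulp3 and the centriole appendage gene Cep89, where 8.77% of all genes had groups that did not.

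Markers of cell types were read in the same way. Rod markers, from the cells that hold most of the retina's connecting cilia, had a median difference of -0.20 over 18 genes. Of these, 16 lay lower in prCAD -/- retina, and 0 passed. Within the pairs the rod markers' median was -0.09, -0.03 and -0.48, so the third pair had the largest part. Motile cilia markers, which would come from ependyma or choroid plexus, lay below the overall median in 8 of 12 genes. Their master regulator Foxj1 averaged 4.22 in prCAD -/- and 4.23 in wild type retina, and 0 passed. Markers of Müller glia and gliosis had a median difference of 0.92 over 12 genes, 10 of them higher. That list was split, with Edn2, Cebpd, Osmr and Gfap at 3.51, 2.52, 1.77 and 1.60. In contrast, Glul, Rlbp1, Slc1a3 and Aqp4 differed by only -0.08, -0.07, 0.14 and 0.15. Pigment epithelium markers had a median of 0.90 over 12 genes. From either list 0 passed, though 1 gliosis gene did with the replicate block. What part such cells have in the members' values was not tested.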

How the data were processed

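The deposited table holds log2 expression values produced by the authors with RMA (no version stated), per the submitters' processing notes. RMA brings the arrays to a common distribution, which hides differences in total signal. Total RNA was column-purified and biotin-labelled, per the labels' protocols, and a genome build was not stated. Of 45101 probe sets 64 manufacturer controls were left out of the tests. Genes were named by the platform annotation, and promoter windows came from RefSeq (GRCm38.p6).

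Groups followed the sample titles. The test was limma 3.58.1 in R 4.3.3 (lmFit, eBayes) on group alone, over all 45037 probe sets. This fit was tried on simulated data with independent noise in each array, which did not include variation shared by same-numbered arrays. After subtraction of group means, the 2 arrays of each replicate number correlated at 0.477, 0.469 and 0.563 across probe sets. The numbers were therefore treated as pairs, which rests on the data and not on the labels. With 3 pools a group, p-values measure the spread between pools. Members, lists and alternatives were chosen with earlier results of these data known. All members may be named, and so may up to 6 other pathway genes by p, with Cep89 and Wdr35 named besides. Values by array are given for members of smallest p or highest mean in each role group. They are also given for any whose groups do not overlap and for others singled out after their values were seen. Alternatives were the replicate block, a dim filter, further quantile normalization, median centring, trend and robust fits, array weights, other gene summaries and leaving out arrays. Figures were drawn with matplotlib 3.10.9.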

Additional observations from a re-analysis of the deposited data

How the results depend on the processing

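The count of ciliary genes past the threshold stayed at 0 under all 15 alternatives, the replicate block (0) and the removal of each array (0 to 0) included, and so did that of the other pathway genes (0 to 0). The count lying higher in prCAD -/- retina ran from 18 to 33 without single arrays and was 25 with the replicate block, which changed no call. Medians near 0 did not keep their sign. That of all members was -0.030 with array weights, -0.023 with the mean of all probe sets, and ran from -0.073 (without mutant replicate 1) to 0.081 (without wild type replicate 1), with -0.054 without wild type replicate 3. That of IFT-B was 0.0098 with array weights and 0.012 without both replicate 3 arrays, and ran from -0.045 (without wild type replicate 3) to 0.11, with -0.044 without mutant replicate 1. IFT-A was 0.012 with array weights and ran from 0.0037 to 0.13. BBSome subunits ran from -0.082 to 0.11 (without mutant replicate 3), the motors from -0.14 to -0.020, the transition zone group from -0.14 to 0.085 (without wild type replicate 1) and the lipidated-protein group from -0.19 to -0.039, and the last was -0.015 with the probe sets above the overall median and -0.015 without both replicate 3 arrays. Of the 15 genes shown by array, 6 changed sign somewhere, none past the threshold. With array weights Bbs5 was 0.075, Ift43 -0.038 and Dync2h1 -0.049. Without both replicate 3 arrays Bbs5 was 0.088, Ift43 -0.057 and Dync2h1 -0.012. With the mean of all probe sets Rpgrip1 was -0.24. Without probe sets that can cross-hybridise Bbs4 was -0.075 and Ift122 -0.0096. Without single arrays Bbs5 ran from -0.24 to 0.11, Ift43 from -0.068 to 0.21, Dync2h1 from -0.014 to 0.10 and Ift122 from -0.053 to 0.29, with -0.0051 for Ift43 without wild type replicate 1 and -0.0048 for Dync2h1 without wild type replicate 2. The count over all probe sets was 5, and 15 with the replicate block, 25 with array weights, 3 without cross-hybridising probe sets, 16 without both replicate 3 arrays and 2 to 9 without single arrays. The causes of these changes were not tested. Signal at or below 4.76 limits Ofd1, Rp2 and Tmem67.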

Other observations

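The shorter motif GTTGCC, which is GGCAAC on the other strand and forms part of some X-box matches, was present in 17 of 43 member promoters (39.5%), against 14.1% of 27025 genes with a window. With up to 2 mismatches the longer pattern was present in 15 of 43 (34.9%), against 15.8%. The genes with a match of at most 1 mismatch lay higher in prCAD -/- than in wild type retina in 7 of 8 cases. Of all genes 58.4% did so, and of the 48 members 25 (52.1%). They ran from 0.02 in Ahi1 to 0.38 in Ift57, while Bbs7 lay at -0.26, and 0 of the 8 passed the test by limma. These signs are of the brightest probe sets. The dimmer one of Ahi1 lay at -0.35, and the 4 of Bbs4 ran from -0.08 to 0.28. Those of Ift57, Nphp4 and Bbs7 kept their sign.

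Ift88 and Rpgrip1 are the members on the chromosome that holds Cdhr1 in GRCm38.p6, and their differences at the brightest probe set were 0.03 (SE 0.16) and 0.20 (SE 0.16).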
